A study of Mus musculus with 4 samples.

Results

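The S100 genes are a family of small calcium-binding proteins, and 10 of them (S100a1, S100a4, S100a6, S100a8, S100a9, S100a10, S100a11, S100a13, S100a14 and S100a16) were followed through RNA sequencing of medullary thymic epithelial cells (mTECs), among 23366 genes in the count table. The members were chosen by their read counts in these same pools, and S100a8 and S100a9 were set apart from the other 8 by their male and female levels. Their male over female values and their values by pool number are therefore given as a description, without a test. The mTECs were sorted from wild-type C57BL/6 mice aged 6 to 8 weeks as PI- CD45- MHCII+ Ly51low cells, without any treatment, and each library held RNA pooled from 10 mice. There were 2 pools from females (female pools 1 and 2) and 2 pools from males (male pools 1 and 2), so differences between single mice could not be seen.

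The count tables held 1976272 to 7103627 reads on genes per pool, and 3 reads, the most that a count of 0 allows, were worth 0.358 to 1.48 normalized CPM. Normalized CPM are counts divided by the library size after edgeR's TMM factors, and per 1000000 reads, and the factors ran from 0.78 in male pool 2 to 1.18 in male pool 1. The first principal component held 68% of the variance and separated the pools numbered 1 from those numbered 2, with male pool 2 at its far end. Transcripts of the Y-linked gene Ddx3y had 0 counts in both female pools and 89 or more in the male pools, as the labels state. Xist had 349 and 111 counts in female pools 1 and 2, and 7 and 18 in male pools 1 and 2. It was thus lower in the male pools but not absent there. Of 6 markers of medullary thymic epithelium, 5 had more than 3 counts in every pool, and Ccl21a, which has near-identical copies and is uncertain for that reason, was at 0 counts in every pool. Genes of blood cells were also abundant, and the summed level of 6 B cell genes was 2380 to 4294 CPM against 376 to 650 CPM for 9 epithelial genes.

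S100 proteins bind calcium through paired EF-hand motifs, mostly as dimers, and then attach to target proteins such as annexins, myosin or cell surface receptors. S100a8 and S100a9 form calprotectin, a heterodimer that makes up much of the cytosolic protein of neutrophils and is also present in monocytes. It sequesters zinc and manganese when it is released. S100a4, S100a6, S100a10 and S100a11 are expressed by many cell types, whereas S100a14 and S100a16 are best known from epithelia. In the thymus, mTECs transcribe genes of many other tissues, and sorted thymic cells can carry RNA of the blood cells beside them.

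All 10 members lie on chromosome 3, and none shared an exonic base with another gene in the GENCODE vM1 models of NCBIM37, the assembly also called mm9, to which the authors aligned their reads. The first 8 lie within 185 kb, from S100a1 (90314956 to 90318314, minus strand) to S100a9 (90496554 to 90499643, minus strand). S100a1 and S100a13 (90318357 to 90328503, plus strand) point away from each other with 42 bases between them. S100a8 (90472993 to 90473956, plus strand) ends 22.6 kb before S100a9, and 3 exon blocks were annotated in each of these genes. S100a11 (93324410 to 93330209) and S100a10 (93359002 to 93368565), both on the plus strand, lie 2.82 Mb further on.

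The 250 bases before the annotated start are shown for S100a8 and S100a9, which followed sex, and for S100a4 and S100a11, which had the larger pool 2 over pool 1 differences among the 3 most abundant members. The sequences are from RefSeq on GRCm38.p6, which is a later build than that of the counts, and capitals mark TATAAA, the letters of a TATA box, or TTGCNNAA, a motif bound by C/EBP factors.
S100a8 (chr3:90668821-90669070, plus strand): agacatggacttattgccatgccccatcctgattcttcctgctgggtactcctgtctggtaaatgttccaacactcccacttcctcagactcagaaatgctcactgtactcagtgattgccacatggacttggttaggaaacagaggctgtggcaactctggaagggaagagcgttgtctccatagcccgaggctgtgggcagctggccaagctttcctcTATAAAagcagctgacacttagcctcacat
S100a9 (chr3:90695722-90695971, minus strand): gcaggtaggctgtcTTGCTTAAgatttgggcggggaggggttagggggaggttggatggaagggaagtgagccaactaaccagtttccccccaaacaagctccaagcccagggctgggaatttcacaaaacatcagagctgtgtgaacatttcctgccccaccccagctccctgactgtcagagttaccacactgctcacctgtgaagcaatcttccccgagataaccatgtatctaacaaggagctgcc
S100a4 (chr3:90603520-90603769, plus strand): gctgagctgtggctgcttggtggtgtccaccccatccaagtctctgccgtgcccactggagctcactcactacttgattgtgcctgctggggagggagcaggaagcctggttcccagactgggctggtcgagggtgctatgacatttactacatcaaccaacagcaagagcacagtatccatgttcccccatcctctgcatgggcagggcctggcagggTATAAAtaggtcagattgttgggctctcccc
S100a11 (chr3:93520246-93520495, plus strand): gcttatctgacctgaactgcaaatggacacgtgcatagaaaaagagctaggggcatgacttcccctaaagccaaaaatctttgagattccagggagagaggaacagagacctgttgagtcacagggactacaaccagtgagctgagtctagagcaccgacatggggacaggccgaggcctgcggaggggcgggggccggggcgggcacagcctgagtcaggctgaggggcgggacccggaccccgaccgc
RefSeq windows were found for 8 of the 10 members, and S100a10 and S100a14 were not matched. The same 2 motifs, and AGAACA (bound by the androgen receptor), were searched on both strands of 300 bases, 250 before and 50 after the start. No match of one motif overlapped that of another in the members. TATAAA was present in 3 members (S100a8, S100a9 and S100a4) and in 13.6% of 32851 promoter windows. Its first base lay 30 bases before the start in S100a8 and 31 bases before it in S100a4, a place (15 to 40 bases before the start, sense strand) where 2.11% of all windows held it. In S100a9 it began at base 1 after the start and so is outside the printed stretch. TTGCNNAA was found in S100a9 alone among the members, 236 bases before the start, and in 10.8% of all windows. AGAACA was found in S100a6 alone, against 19% of all windows. These are matches of letters, and binding of a factor was not measured.

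Levels were compared between genes as normalized reads per kilobase of exon (RPKM, CPM divided by exon length), as the mean over the 4 pools. S100a11 was highest, at 3508 ± 2750 RPKM (SD, n = 4 pools), and ranged from 1331 to 7380 RPKM over the pools. S100a6 and S100a4 followed at 1341 ± 859 and 1289 ± 1269 RPKM, and S100a11 was above S100a6 in 4 of 4 pools although their ranges overlapped. The lowest value of S100a4 (432 RPKM, male pool 1) was above the highest of S100a10 (333 RPKM). It was just below the highest of S100a13 (434 RPKM, male pool 2), so the ranges of S100a4 and S100a13 overlapped. S100a10, S100a13, S100a8, S100a1 and S100a9 formed a middle group with means of 232, 206, 139, 133 and 106 RPKM, and each neighbour in that order overlapped the next. S100a14 and S100a16 were lowest, at 17.2 ± 11.5 and 14.6 ± 7.34 RPKM, with overlapping ranges, and the highest value of S100a14 (33.7 RPKM) was below the lowest of S100a9 (37.0 RPKM). The plot of the members in each pool shows the same counts in CPM.

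**Figure D1:**
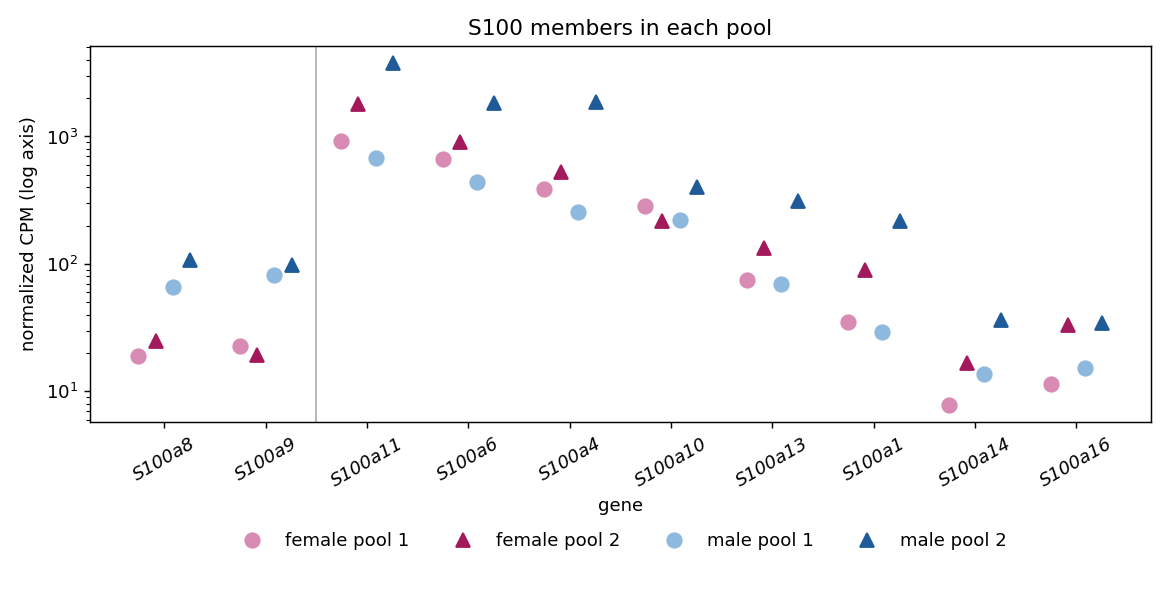
Normalized CPM (vertical log axis) of the 10 members (horizontal axis), with 1 point per pool: circles are the pools numbered 1, triangles those numbered 2, pink tones female and blue tones male. Left of the grey line, both male pools lie above both female pools for S100a8 (65.8 and 108 against 19.0 and 24.7) and S100a9; to its right, both triangles lie above both circles for each gene except S100a10.

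S100a8 and S100a9 were higher in mTECs from males in both pools of that sex. S100a8 had 19.0 and 24.7 CPM in female pools 1 and 2, and 65.8 and 108 CPM in male pools 1 and 2. S100a9 had 22.8 and 19.3 CPM in females and 81.5 and 97.4 CPM in males. For both genes the lower male pool was above the higher female pool. The fitted male over female log2 fold change was 1.99 for S100a8 (standard error 0.39) and 2.08 for S100a9 (standard error 0.33), n = 2 pools per sex. Both male pools were above both female pools for these 2 of the 10 members and for 9.47% of the 10865 genes that passed the filter on low counts. Over all genes, 0% were called by sex at an adjusted p under 0.05 (edgeR quasi-likelihood, Benjamini-Hochberg). There were 48 genes at an unadjusted p under 0.05, and the exact test of edgeR called 8 genes and DESeq2 3. Within the pools numbered 1, S100a8 was 3.46-fold and S100a9 3.57-fold higher in the male pool. Within the pools numbered 2, the folds were 4.37 and 5.05. Both genes were therefore higher in males in each pool number, as were 22.8% of all genes tested.

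Within the pair, neither gene was predominant in all pools. S100a8 made up 45.5% of the reads on the pair in female pool 1 (95% Wilson interval 37.8% to 53.3%), 56.2% in female pool 2 (45.8% to 66.0%), 44.7% in male pool 1 (41.9% to 47.5%) and 52.6% in male pool 2 (48.4% to 56.8%). These intervals cover counting error only. The intervals of the male pools did not overlap each other, and S100a8 had the larger share in both pools numbered 2. Against the whole family the pair did not keep a fixed share. S100a8 and S100a9 took 1.72% of the reads on the 10 members in female pool 1 (1.47% to 2.02%) and 1.17% in female pool 2 (0.952% to 1.44%). In male pool 1 they took 7.89% (7.48% to 8.33%) and in male pool 2 2.37% (2.18% to 2.57%). This share needs no scaling between libraries, and each male pool was above both female pools. The mean male share was 3.55-fold the mean female share, with 4.58-fold within the pools numbered 1 and 2.02-fold within the pools numbered 2 (SD 1.81 over the 2 pool numbers). It was 1.64-fold without male pool 1 and 5.46-fold without male pool 2. Male pool 2 had the higher CPM of both genes but the lower share of the pair. The 10 members together took 0.674% of all reads on genes there, against 0.220% in male pool 1, 0.255% in female pool 1 and 0.385% in female pool 2.

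**Figure D2:**
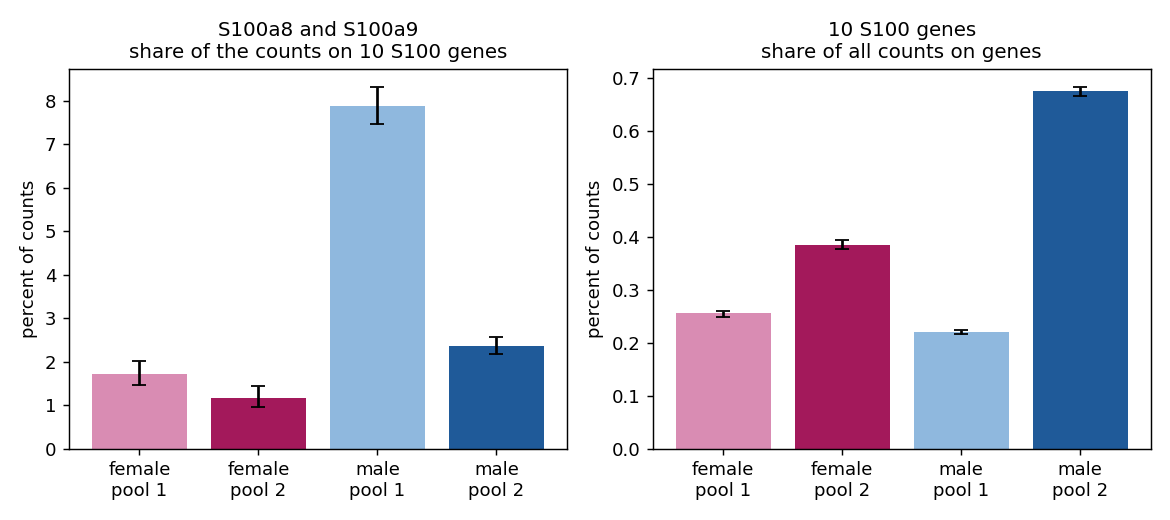
Left, percent of the reads on the 10 members that fell on S100a8 and S100a9 in each pool; right, percent of all reads on genes that fell on the 10 members; error bars are 95% Wilson intervals, which cover counting error only. The pair's share is highest in male pool 1 (7.89%), while the family's share is highest in male pool 2 (0.674%).

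Other genes of neutrophils were examined beside S100a8 and S100a9, since the sort was meant to leave out CD45+ cells. Of 13 further neutrophil genes in the table, 5 were higher in both male pools than in both female pools (3 of these did not pass the filter), as were 9.47% of all genes tested. Of the 8 that passed the filter, 7 had a log2 fold change above 0, as did 53.2% of all genes tested (median 1.10, against 0.03 over all genes tested). Camp, which encodes the antimicrobial peptide cathelicidin, had 3.81 and 2.47 CPM in females and 12.3 and 14.2 CPM in males, the same order of sexes as the S100 pair. Ngp, a secondary granule protein of neutrophils, had 12.8 and 2.47 CPM in females and 40.6 and 8.86 CPM in males, so that its lower male pool lay below its higher female pool. Cxcr2, a chemokine receptor, had 44.0, 52.0, 34.5 and 178 CPM in female pools 1 and 2 and male pools 1 and 2, and so followed male pool 2 rather than sex. The summed level of the 13 genes was 83.2 and 85.6 CPM in females and 152 and 239 CPM in males. Without Cxcr2, left out after its values were seen, it was 39.1 and 33.7 CPM in females, 118 CPM in male pool 1 and 62.0 CPM in male pool 2. The granule genes Elane and Mmp8, named after their values were seen, had 33 and 12 counts in male pool 1, at most 1 count in female pool 1, and 0 counts in both pools numbered 2. None of the 13 genes was at 0 in every pool. The part of neutrophil RNA in the S100a8 and S100a9 values was not tested, and in such bulk libraries more cells of a type and more RNA per cell cannot be told apart.

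**Figure D3:**
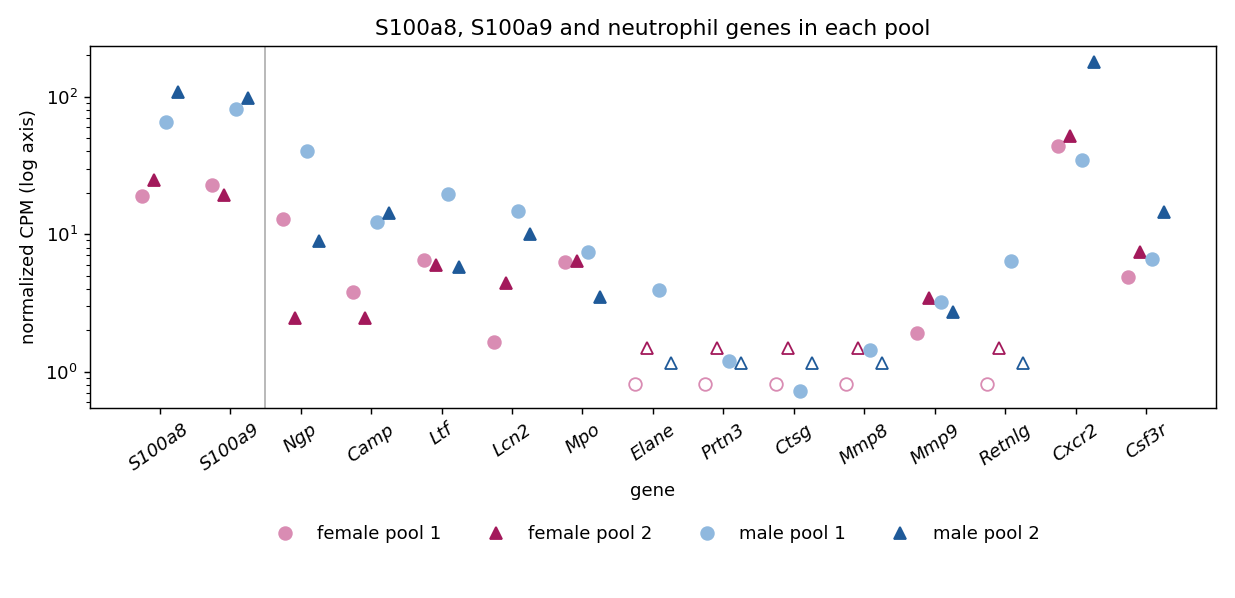
Normalized CPM (vertical log axis) of S100a8, S100a9 and 13 neutrophil genes (horizontal axis), with 1 point per pool, marked as in the plot of members; open symbols are pools with 3 counts or fewer, drawn at the level that 3 counts would have. Camp shows both male pools above both female pools (12.3 and 14.2 against 3.81 and 2.47), whereas Ngp is highest in male pool 1 (40.6) and Cxcr2 in male pool 2 (178).

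Genes with a like course were sought from log2 CPM with a prior count of 2, centred over the 4 pools for each tested gene. Each was compared with the mean of S100a8 and S100a9 by the root mean square difference. The nearest was Camp (0.237 log2 units). It was followed by Mfap5 (0.334), which encodes a microfibril-associated protein, Sparc (0.365), a matrix glycoprotein, Thy1 (0.377), a surface glycoprotein, and Cmss1 (0.385). The count behind Mfap5 was 5 and 3 reads in females and 83 and 35 in males, so its distance and rank depend on the prior count. Its fitted male over female log2 fold change was 3.01 (standard error 0.54), above those of S100a8 and S100a9. Sparc had 6.25 and 10.4 CPM in females and 24.9 and 24.3 CPM in males, and Thy1 was at most 7.92 CPM in females and reached 18.5 CPM in males. The nearest other S100 member was S100a14 (0.715, rank 251 of 10863 genes), and S100a1 was the farthest (1.21, rank 8639). This is a description over 4 pools.

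The other 8 members had higher levels in the pools numbered 2, except S100a10. Their median pool 2 over pool 1 log2 fold change was 1.47, against -0.03 over all 10865 genes tested, and it was 0.39 for S100a8 and S100a9. In these 7 of the 8, both pools numbered 2 were above both pools numbered 1, as for 26.5% of all genes tested. In edgeR's quasi-likelihood fit with pool number as the only term, 2 of 10 members (S100a1 and S100a16) were among the genes called higher in pool 2 at a Benjamini-Hochberg adjusted p under 0.05, which were 1.86% of all genes (2.03% in either direction). At an unadjusted p under 0.05, 7 members were higher in pool 2, beside 14.4% of all genes. The members were chosen on the counts of these pools, so nothing is read from these counts of members, and the fitted differences below are given without p-values. Male pool 2 was the highest pool for 10 of 10 members, as for 32.7% of all genes, and 5 of the 8 also had male pool 1 lowest, as for 15.6% of all genes. The study calls the 2 pools of a sex biologic replicates, and whether a number stands for a day or batch common to both sexes is not stated in the sources used here.

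S100a1, best known from heart muscle, had 35.3 CPM in female pool 1 and 29.4 CPM in male pool 1, against 89.6 CPM in female pool 2 and 216 CPM in male pool 2. The pools numbered 2 were higher in each sex, and most of all in males. Its log2 fold change of pool 2 over pool 1 was 2.25 (standard error 0.39), with 1.47 as the lowest value (male pool 2 left out) and 2.78 as the highest (female pool 2 left out). S100a16 had 11.4 and 15.3 CPM in female and male pool 1 and 33.2 and 34.3 CPM in female and male pool 2, so that the sexes lay close together within a pool number. The log2 fold change of S100a16 was 1.31 (standard error 0.27), and it ran from 1.13 without female pool 1 to 1.55 without male pool 1.

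S100a13, which takes part in the export of Fgf1 from cells and lies head to head with S100a1, had 75.3 and 69.4 CPM in female and male pool 1 and 133 and 310 CPM in female and male pool 2. The log2 fold change of S100a13 was 1.62 (standard error 0.38), falling to 0.88 with male pool 2 left out and reaching 2.13 with female pool 2 left out. S100a11, the most abundant member and a partner of annexin A1, had 915 and 680 CPM in female and male pool 1 and 1803 and 3771 CPM in female and male pool 2. S100a4, a binding partner of nonmuscle myosin that fibroblasts and myeloid cells express, had 386 and 254 CPM in female and male pool 1, and 525 and 1861 CPM in female and male pool 2. For both genes male pool 2 was highest and male pool 1 lowest. S100a6 (calcyclin) had the same order, with 437 CPM in male pool 1, 672 CPM in female pool 1, 902 CPM in female pool 2 and 1845 CPM in male pool 2. The log2 fold changes were 1.81 for S100a11, 1.90 for S100a4 and 1.31 for S100a6 (standard errors 0.46, 0.56 and 0.43). Without female pool 2 they were 2.27, 2.57 and 1.76, and without male pool 2 they were 1.17, 0.71 and 0.70. S100a14 had 7.88 and 13.6 CPM in female and male pool 1 and 16.8 and 36.6 CPM in female and male pool 2, a log2 fold change of 1.28 (standard error 0.41). That of S100a14 ran from 0.59 without male pool 2 and 0.97 without female pool 1 to 1.73 without female pool 2 and 1.75 without male pool 1.

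S100a10, the partner of annexin A2, differed from the other 7 in that its pools did not separate by number. It had 284 and 220 CPM in female and male pool 1 and 217 and 404 CPM in female and male pool 2, with a log2 fold change of 0.30 (standard error 0.35). Leaving out male pool 2 gave -0.22 for S100a10, and leaving out female pool 2 gave 0.71. S100a8 and S100a9 were at 0.63 (standard error 0.65) and 0.15 (standard error 0.68). S100a8 was at -0.84 without male pool 2 and at 1.80 without male pool 1, and S100a9 at -1.49 and 1.35 in the same fits. Over all genes, 221 were called by pool number, 202 of them higher and 19 lower in pool 2. With library size only in place of TMM factors, 376 were higher and 388 lower, and the median log2 fold change of all genes moved by -0.32, to -0.35. Against that median, S100a1 was at 2.21, S100a4 at 1.85, S100a11 at 1.79, S100a16 at 1.34, S100a10 at 0.30 and S100a9 at 0.03, though S100a9 and S100a10 themselves fell below 0 (-0.32 and -0.05).

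**Figure D4:**
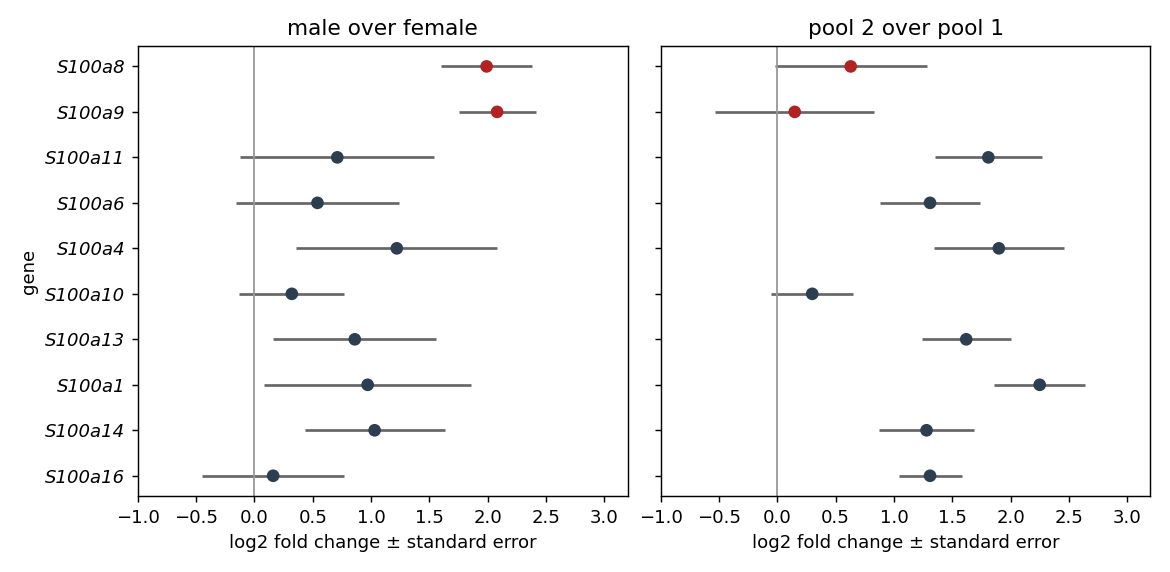
Log2 fold changes (horizontal axes) with their standard errors for the 10 members (vertical axis), male over female on the left and pool 2 over pool 1 on the right, each from 4 pools; red points are S100a8 and S100a9 and dark points the other members. S100a8 and S100a9 are highest on the left (1.99 and 2.08) and S100a1 is highest on the right (2.25).

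Between the sexes, the fitted log2 fold changes of the other 8 members were all above 0, from 0.16 for S100a16 to 1.22 for S100a4, with a median of 0.79 against 0.03 over all genes tested, but none had both male pools above both female pools. Their values rested on male pool 2. Without that pool, 7 of the 8 were below 0, down to -1.06 for S100a1, and S100a14 was at 0.21. Within the pools numbered 1, the male pool was lower than the female pool for 6 of the 8. S100a6 and S100a4 were 1.54-fold and 1.52-fold higher in the female pool there, and S100a11, S100a10, S100a1 and S100a13 1.35-fold, 1.29-fold, 1.20-fold and 1.08-fold. Within the pools numbered 2, the male pool was 3.55-fold higher for S100a4, 2.41-fold for S100a1, 2.33-fold for S100a13, 2.09-fold for S100a11, 2.05-fold for S100a6 and 1.86-fold for S100a10. Such a change of direction, lower in male than in female pool 1 and higher in male than in female pool 2, was found in 27.1% of all genes tested. S100a14 was higher in the male pool of each number (1.73-fold and 2.17-fold), as was S100a16 (1.34-fold and 1.03-fold). No test of the difference between the pool numbers was possible with 1 pool per sex and number.

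**Figure D5:**
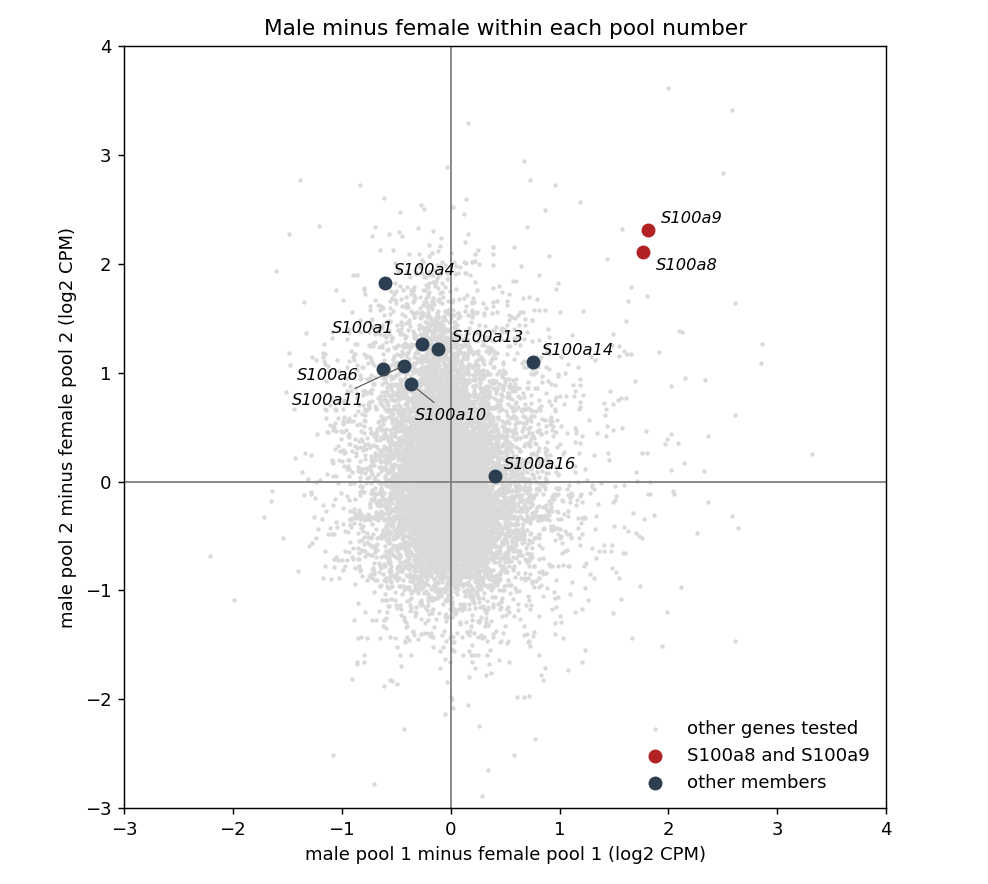
Male minus female log2 CPM, computed with a prior count of 2, within the pools numbered 1 (horizontal axis) and within those numbered 2 (vertical axis), for the genes tested (grey; 6 lie outside the axes), S100a8 and S100a9 (red) and the other members (dark). The red points are positive on both axes, and 6 of the 8 dark points are negative on the horizontal axis and positive on the vertical one.

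Of 7 S100 genes outside the members, 5 did not pass the filter and had at most 13 counts in any pool (S100a2, S100a5, S100a7a, S100b and S100z). S100g, a vitamin D-dependent calcium-binding protein of the gut that lies on chromosome X, had 2.45 and 3.35 CPM in female and male pool 1 and 11.4 and 46.6 CPM in female and male pool 2. It rose in pool 2 with a log2 fold change of 3.29 (standard error 0.60, adjusted p = 0.0443 by edgeR's quasi-likelihood test), but was not called without male pool 2 (1.91, adjusted p = 0.0965). S100a3, known from the hair cuticle, had 3.53 and 4.30 CPM in female and male pool 1 and 3.96 and 18.9 CPM in female and male pool 2 (log2 fold change 1.56, adjusted p = 0.162 by the same edgeR test, and -0.02 without male pool 2).

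Receptors and partners of the S100 proteins were measured beside them. Among 3 receptors, Bsg (basigin, a receptor of S100a9) had 236 to 272 CPM over the 4 pools, while Ager, which encodes the receptor RAGE, and Tlr4 had at most 2.70 CPM. Of 9 partners, 1 was called by pool number, as were 2.03% of all genes tested. None could be called by sex, since the sex fit called 0% of all genes. The one called was Fgf1, a growth factor whose export involves S100a13, with 1 and 3 counts in female and male pool 1 and 6 and 11 in female and male pool 2 (log2 fold change 3.35, adjusted p = 0.0483 by edgeR's quasi-likelihood test). With so few counts that fold depends on the prior count (2.35 with a prior count of 2). Fgf1 was not called without male pool 1 (log2 fold change 3.53) or female pool 1 (3.24). Without male pool 2 it did not pass the filter on low counts, so no fold change was fitted there. Anxa2, the partner of S100a10, had 664 and 771 CPM in females and 648 and 670 CPM in males, a pool 2 over pool 1 log2 fold change of 0.14 (standard error 0.31). Anxa6 and Cacybp, the calcyclin-binding protein, were at -0.18 and 0.15. The median over the 9 partners was 0.15 by pool number and -0.08 by sex.

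Markers of cell types were set beside the members as measured values. Of 9 genes of monocytes and macrophages, 6 were higher in pool 2 in each sex, as were 31.2% of all genes tested, and 0 were called by pool number. Their summed level was 1657 CPM in male pool 1, 2196 CPM in female pool 1, 3329 CPM in female pool 2 and 4583 CPM in male pool 2, which is the order of S100a1, S100a4, S100a6, S100a11 and S100a13. Male pool 2 was highest and male pool 1 lowest, the ends of that order, for 15.6% of all genes tested. Lyz2, the lysozyme of myeloid cells, made up the largest part of each sum, with 841, 1161, 2397 and 3327 CPM in that same order of pools. Cd68 had 118, 144, 246 and 276 CPM. Ly6c2 did not follow that order, with 503, 645, 392 and 618 CPM. Epithelial genes were higher in pool 2 in each sex for 7 of 9, with a sum of 376 and 418 CPM in female and male pool 1 and 650 and 618 CPM in female and male pool 2. Krt8, a keratin of simple epithelia, had 43.2 and 63.2 CPM in female and male pool 1 and 122 and 128 CPM in female and male pool 2, the same close sexes as S100a16. Krt18, its partner keratin, had 26.4 and 42.7 CPM in female and male pool 1 and 84.1 and 83.9 CPM in female and male pool 2. Neither keratin was called (adjusted p = 0.0532 and 0.0545 by edgeR's quasi-likelihood test). Of 7 genes of cornified epithelium, 6 were higher in pool 2 in each sex, but only 3 passed the filter. Only 2 of the 7 had more than 3 counts in every pool. Of the 3 tested, 1 (Sprr1a) was called by pool number, as were 2.03% of all genes tested. Its log2 fold change was 2.26 (adjusted p = 0.0391 by the edgeR test). Without male pool 2 Sprr1a was at 1.79 and was not called. The list had a sum of 10.3 and 12.7 CPM in female and male pool 1 and 42.1 and 50.8 CPM in female and male pool 2. B cell genes went the other way, with 6 of 6 lower in pool 2 in each sex, as were 35% of all genes tested. The fibroblast list, summed over 8 genes, had 14.4 and 47.5 CPM in females and 81.4 and 92.4 CPM in males, and 3 of its genes were higher in both male pools than in both female pools, as were 9.47% of all genes tested. Of the 8 fibroblast genes, 2 had more than 3 counts in every pool. The medullary and cortical thymic epithelium lists had sums of 374 to 487 CPM and 153 to 173 CPM. The sex fit called 0% of all genes tested, so no list could hold a gene called by sex. The part of any of these cell types in the S100 values was not tested.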

How the data were processed

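RNA was measured in mTECs from 2 pools of 10 mice per sex. The authors deposited raw counts of reads per gene for each pool, made with HTSeq-count from TopHat2 alignments to mm9 after quality filtering in Trimmomatic. Versions, gene annotation and the strand setting are not given in the sources used here. Rows of unassigned reads (66.9% to 70.2% of a pool) stayed out of library sizes and tests. Every pair of pools differed by more than counting noise.

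Counts were fitted with edgeR 4.0.16 (TMM, filterByExpr with a minimum count of 10, prior count 0.125, quasi-likelihood test, two-sided, Benjamini-Hochberg at 0.05 over all genes), in 1 fit on sex and in another on pool number. Standard errors were derived from each fold change and its F statistic. DESeq2 1.42.0, R 4.3.3, Python 3.11.15 and GENCODE vM1 exon lengths (90.9% of symbols matched) were also used. Each p-value of the fit on sex rests on the spread between pools of mice of the same sex. In the fit on pool number, it rests on the spread between the female and the male pool of a number. Differences between the sexes are therefore part of that spread. The members and lists were chosen with earlier results of these data known. The genes named are the members, every other S100 gene, genes called by pool number or among the 3 most abundant of a list, and the 5 nearest in course to S100a8 and S100a9. Some genes under this rule are left out here.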

Additional observations from a re-analysis of the deposited data

Results flagged for a closer look

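The difference between pool 2 and pool 1 had opposite signs in the sexes for 2 members. For S100a9 the log2 ratio of pool 2 over pool 1 was -0.24 in females and 0.26 in males, from 39 to 682 counts per pool. For S100a10 it was -0.38 in females and 0.87 in males. With 1 pool per sex and number, these differences between the sexes were not tested.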

How the results depend on the processing

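With alternatives to the sex fit, 17 genes were called with the replicate block (sex and pool number in one fit), 3 with DESeq2, 8 with the exact test, 5 with library size only and 26 with no filter on low counts, and 0 to 646 with each pool left out (646 without male pool 1, 70 without male pool 2). By pool number, 221 became 807 with the replicate block, 651 with DESeq2, 1138 with the exact test, 764 with library size only and 1504 with no filter, and 174 to 2620 with each pool left out. Members called higher in pool 2 numbered 2 at first, beside 202 of 10865 genes tested. They numbered 4 with the replicate block (S100a1, S100a13, S100a14 and S100a16), beside 648 genes, and 4 with library size only, beside 376. With DESeq2 there were 6, beside 586 genes, and with the exact test 7, beside 868. With no filter there were 7, beside 1035 of 17866 genes. The members were chosen on the counts of these pools, so nothing is read from these numbers. Fits with a pool left out keep a single pool in one of the numbers, and members called in those fits are not counted here. Both sexes use the numbers 1 and 2, and deviations of pool 1 from the sex means correlated at 0.519 over genes. The labels name no common origin, and whether the 2 pairs share more than a number is not stated. The pool 2 over pool 1 log2 fold change of S100a9 was -0.32 with library size only, -0.48 without female pool 1 and -1.49 without male pool 2, that of S100a10 -0.05 with library size only and -0.22 without male pool 2, that of S100a8 -0.84 without male pool 2, and that of S100a3 -0.02 without male pool 2. Without male pool 1 S100a8 was at 1.80 and S100a9 at 1.35, and without female pool 2 S100a10 was at 0.71 and S100a3 at 2.26. The male over female fold of the pair's share ran from 1.64 to 5.46 with a pool left out, which was chosen after seeing the data, as were the alternatives for S100a3, S100g, Fgf1 and Sprr1a. The fold was 3.48 to 3.75 with other denominators. The causes were not tested. Male over female log2 fold changes of S100a8 and S100a9 stayed at 1.61 to 2.31 and 1.95 to 2.21.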

Other observations

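Within the reads on the 10 members, which need no scaling between libraries, S100a11 took 37.7% in female pool 1 and 36.4% in male pool 1, and 47.9% and 43.4% in female and male pool 2. S100a10 took 11.7% and 11.8% in female and male pool 1 and 5.77% and 4.65% in female and male pool 2, so that its share was lower in both pools numbered 2. Its level was not lower in males, at 220 CPM in male pool 1 and 404 CPM in male pool 2, where S100a11, S100a4 and S100a6 had larger pool 2 over pool 1 folds (5.55, 7.34 and 4.22, against 1.83 for S100a10). S100a4 took 15.9%, 13.9%, 13.6% and 21.4% in female pools 1 and 2 and male pools 1 and 2, and was highest in male pool 2. S100a6 took 27.7%, 24.0%, 23.4% and 21.3% in the same order. The 95% Wilson intervals of S100a10 did not overlap between the pool numbers (the lowest bound in pools numbered 1 was above the 6.32% that was the highest bound in pools numbered 2), and they cover counting error only.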
